A study of Homo sapiens with 5 samples.

Results

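Promoter regions that carried MYC together with the Mediator subunits MED17 and MED30 were examined in MIA PaCa-2, an established cell line grown from a human pancreatic cancer. The peak lists of the 3 proteins from parental cells were merged wherever peaks shared at least 1 bp on chromosomes 1 to 22 and X. A merged region was kept when it held a peak of all 3 lists, lay within 1 kb of the start or end of a protein-coding gene, and did not lie in a stretch of over 2 Mb without any annotated gene. This gave 5103 regions out of 19126 merged regions, of which 15564 lay outside gene-free stretches. They lay at 6206 of the 19974 protein-coding genes on these chromosomes, or 31.1%. The regions were thus selected on the presence of parental peaks of all 3 proteins, which is not a result, and their parental folds are described only.

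Chromatin immunoprecipitation with sequencing (ChIP-seq) had been performed on 5 samples. MYC was mapped in MIA PaCa-2 cells with a tetracycline-inducible short hairpin RNA against MED30 (shMED30) after 3 days of doxycycline, labelled as 0.5 mg/ml, and in the same line without doxycycline; MED17, MED30 and MYC were mapped in parental cells without the hairpin. With 1 library per group, no difference could be set against the spread of replicates, and no test was made. The labels do not say whether the shMED30 line is a clone or a pool, and no library of doxycycline with a hairpin against another target was analysed here. The level of MED30 with doxycycline was not measured by these files. Chromatin for MED17 and MED30 was fixed in a pair of steps, by 20 min in 2 mM disuccinimidyl glutarate followed by 10 min in 1% formaldehyde. Chromatin for MYC had the formaldehyde step alone, so every comparison of Mediator with MYC is also one of fixation.

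MYC is a transcription factor that binds DNA as a dimer with MAX, most tightly at the E-box CACGTG, and many of its best known targets encode parts of the machinery for making ribosomes, proteins and nucleotides. Mediator is a large complex that carries signals from DNA-bound factors to RNA polymerase II at promoters. MED17 is a central subunit of its head module, and MED30 is a subunit found in animals but not in budding yeast. A ChIP-seq peak shows that DNA was recovered with a protein above the local background. It does not show that the gene is expressed, nor that the proteins sat on the same DNA molecule.

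Promoter sequences of 8 genes are shown as examples of promoters that hold the E-box CACGTG and of promoters that lack it. They are RefSeq sequences of GRCh38.p14, 250 bases up to the base before the gene start, written 5′ to 3′ on the gene's strand. In HERPUD1, NDUFA11, LDHA and ATIC, MYC had a peak in parental cells and in the shMED30 line with and without doxycycline, and capitals mark CACGTG.
HERPUD1: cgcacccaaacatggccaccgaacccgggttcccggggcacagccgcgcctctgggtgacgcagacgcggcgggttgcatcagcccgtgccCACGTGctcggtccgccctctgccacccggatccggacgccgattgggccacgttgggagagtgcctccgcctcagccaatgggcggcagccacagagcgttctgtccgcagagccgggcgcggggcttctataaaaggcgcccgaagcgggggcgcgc
NDUFA11: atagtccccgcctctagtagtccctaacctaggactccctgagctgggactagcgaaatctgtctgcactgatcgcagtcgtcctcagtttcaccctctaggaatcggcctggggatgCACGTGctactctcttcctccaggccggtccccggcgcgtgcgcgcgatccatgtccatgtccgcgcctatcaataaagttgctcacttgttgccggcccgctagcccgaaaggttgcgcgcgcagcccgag
LDHA: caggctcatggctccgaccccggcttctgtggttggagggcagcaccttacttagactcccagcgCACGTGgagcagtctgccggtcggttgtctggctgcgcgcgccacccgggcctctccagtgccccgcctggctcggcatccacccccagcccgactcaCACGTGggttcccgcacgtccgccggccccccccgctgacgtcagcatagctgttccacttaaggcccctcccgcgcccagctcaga
ATIC: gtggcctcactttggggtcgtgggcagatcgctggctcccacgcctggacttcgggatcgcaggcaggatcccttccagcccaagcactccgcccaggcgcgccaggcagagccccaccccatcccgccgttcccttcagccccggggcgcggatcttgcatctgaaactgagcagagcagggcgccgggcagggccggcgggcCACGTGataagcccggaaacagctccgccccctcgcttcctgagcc

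The HERPUD1 sequence is chr16:56931892-56932141 (plus strand), and its E-box centre at −156 lay 3 bp from the parental MYC summit. HERPUD1 works in the degradation of misfolded proteins at the endoplasmic reticulum. The NDUFA11 sequence is chr19:5903791-5904040 (minus strand), with the E-box at −129 and the summit at −139; NDUFA11 is a subunit of respiratory chain complex I. The LDHA sequence is chr11:18394313-18394562 (plus strand), with 2 E-boxes at −182 and −84 and the summit between them at −127. LDHA encodes the lactate dehydrogenase subunit that turns pyruvate into lactate. The ATIC sequence is chr2:215311809-215312058 (plus strand), with the E-box at −43, and the MYC summit lay 76 bp from it, at 33 bp downstream of the start. ATIC catalyses the last steps of purine synthesis.

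In CCNB1 and MCM2, capitals mark CACGTG as well, but MYC had a peak in the parental list only.
CCNB1: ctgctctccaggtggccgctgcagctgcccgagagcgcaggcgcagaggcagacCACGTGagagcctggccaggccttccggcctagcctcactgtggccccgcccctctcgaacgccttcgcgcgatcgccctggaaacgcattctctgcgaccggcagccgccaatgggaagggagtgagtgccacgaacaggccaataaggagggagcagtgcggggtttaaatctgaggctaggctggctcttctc
MCM2: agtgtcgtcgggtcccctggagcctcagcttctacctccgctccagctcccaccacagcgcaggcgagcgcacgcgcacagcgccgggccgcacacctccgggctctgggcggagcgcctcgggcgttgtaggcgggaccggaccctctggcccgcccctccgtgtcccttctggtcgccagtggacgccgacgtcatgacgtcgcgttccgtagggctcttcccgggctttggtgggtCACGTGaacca
The CCNB1 sequence, at the mitotic cyclin B1, is chr5:69166900-69167149 (plus strand), and its E-box at −193 lay 44 bp from the parental MYC summit. The MCM2 sequence, at a subunit of the replicative helicase, is chr3:127598161-127598410 (plus strand), and its E-box at −8 lay 77 bp from the summit. Both regions had nearly the same parental MYC fold, 6.95.

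GDI2 and SNX5 had the highest parental MYC fold among the named genes whose promoter lacks CACGTG. Capitals in GDI2 mark a palindromic element of 10 bases, which was picked out after the sequence had been seen; SNX5 has no marked element.
GDI2: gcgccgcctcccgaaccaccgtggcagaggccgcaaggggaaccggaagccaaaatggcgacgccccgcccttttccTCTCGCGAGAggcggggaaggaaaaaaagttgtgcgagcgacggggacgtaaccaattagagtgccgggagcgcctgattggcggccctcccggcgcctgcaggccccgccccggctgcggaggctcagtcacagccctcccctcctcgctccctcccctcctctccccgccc
SNX5: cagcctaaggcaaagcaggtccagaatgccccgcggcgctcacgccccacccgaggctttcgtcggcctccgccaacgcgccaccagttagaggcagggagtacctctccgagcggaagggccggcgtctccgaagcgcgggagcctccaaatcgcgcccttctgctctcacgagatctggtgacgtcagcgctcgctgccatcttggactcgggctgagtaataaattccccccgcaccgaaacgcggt
The GDI2 sequence is chr10:5813435-5813684 (minus strand) and the SNX5 sequence chr20:17968795-17969044 (minus strand). GDI2 holds Rab proteins in the cytosol and SNX5 sorts endosomal cargo. The MYC summits lay at −386 in GDI2 and 150 bp downstream of the start in SNX5. Both are outside the stretch searched for CACGTG, so an E-box under these summits was not looked for.

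The regions were 385 to 3099 bp wide, with a median of 1226 bp (quartiles 997 and 1482 bp). A gene boundary lay inside 4722 of them, 282 lay up to 500 bp from one and 99 farther, up to 1 kb. Just outside the limit, 50 regions of all 3 proteins lay within the next 500 bp, and their median parental MYC fold of 4.49 stood beside 4.35 in the 99 just inside. A gene start of known strand lay within 1 kb of 4270 regions, only gene ends of known strand within 1 kb of 48, and for 754 no nearby gene had a known strand. A single protein-coding gene was near 3921 regions, 2 genes near 1114 and 3 or 4 genes near 68, and a region near several genes cannot be assigned to 1 of them. In 462 regions (9.05%), starts of 2 genes on opposite strands faced away from each other within 1000 bp. The starts or ends of long non-coding RNA genes lay near 24.6% of the regions.

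The share of protein-coding genes with such a region was 19.2% on the X chromosome and 20.1% on chromosome 4, the lowest 2, and 37.2% on chromosome 7, the highest. Zinc finger genes named ZNF on chromosome 19 had a region in 62 of 250 cases (24.8%), against 360 of the 1201 other genes there (30.0%). The widest regions lay at JADE2 (3099 bp), TRIM8 (3007 bp), the divergent pair CBX3 and HNRNPA2B1 (2919 bp), VASP (2893 bp) and the histone genes H2AC15 and H2BC15 (2843 bp). The parental MYC folds of these 5 ran from 4.14 at the histone pair to 6.39 at TRIM8.

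Strength was read from the authors' fold enrichment, the ratio of fragment pileup at a peak summit to the local background. It ranks regions within a list and is not compared between lists, and where a list had several peaks in a region the highest fold stands for it. Over the 5103 regions the fold ran from 2.47 to 11.4 for MED17 (median 5.36), from 2.52 to 16.9 for MED30 (median 5.17) and from 2.57 to 16.7 for MYC (median 4.77). The highest MED17 fold, 11.4, and the highest MED30 fold, 16.9, were both at PGK1, a glycolytic kinase on the X chromosome, where the MYC fold was 6.68. The highest MYC fold, 16.7, was at PRDX4, a peroxidase of the endoplasmic reticulum named here after its value was seen, with 5.46 for MED17 and 7.43 for MED30. The ranks ran only loosely together: across the 5103 regions, Spearman's rho was 0.201 between MED17 and MED30, 0.118 between MED17 and MYC and 0.125 between MED30 and MYC. Regions are not replicates, the members share the requirement of all 3 peaks, and each rho is a description of 1 pair of libraries.

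The regions that stood highest in all 3 lists at once, by the mean of their 3 ranks, included genes of RNA splicing, translation and protein folding. SRSF6, a splicing factor of the SR family, came first with folds of 10.4 for MED17, 10.7 for MED30 and 13.2 for MYC at chr20:43457121-43458837. RPS19 (8.75, 9.14 and 11.5 in the same order) and RPS23 (7.93, 9.0 and 11.9), both proteins of the small ribosomal subunit, came next. HSP90AB1, a cytosolic chaperone, had 7.78, 9.40 and 11.3. Also among the 10 were CYCS, which encodes cytochrome c and shares its region with SPMIP4, the chaperonin subunit CCT2, the prolyl isomerase PPIA, the paraoxonase PON2 and HERPUD1. The shMED30 line had a MYC peak with doxycycline at 6 of these 10 and without doxycycline at all 10; HSP90AB1, CYCS, CCT2 and PON2 had none with doxycycline. The rank includes parental MYC fold, and all 10 lay in the highest of 5 equal bins of that fold. In that bin 41.2% of regions had a MYC peak with doxycycline and 63.2% without it.

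Genes of the cytosolic ribosome were nearly all in the set. Of 79 ribosomal protein genes, 77 had a region (97.5%, exact 95% interval 91.2% to 99.7%), against the 31.1% of all protein-coding genes; these intervals cover counting error only. RPS18 had no region and no peak of any of the 3 proteins within 1 kb. The parental MYC fold of the 77 ran from 3.67 to 15.5 with a median of 7.91, beside a median of 4.80 over all 6206 genes with a region. Their median MED30 fold was 7.56 beside 5.17, and their median MED17 fold 5.58 beside 5.33, so they ranked higher for MYC and MED30 and only slightly for MED17. RPSA had the highest MYC fold of the list, 15.5, and RPL5 (14.8) and RPL24 (12.2) were also among the strongest.

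In the shMED30 line, 36 of these 77 genes had a MYC peak with doxycycline and 48 without it, and 30 had both. Over all 6206 genes with a region, 810 had a MYC peak with doxycycline (13.1%) and 1409 without it (22.7%), and 536 of the 1409 had both (38.0%). The ribosomal protein genes also stood high in the parental MYC list, with 63 of the 77 in the highest of 5 equal bins of MYC fold. Among those 63, 35 had a MYC peak with doxycycline (55.6%) and 47 without (74.6%), beside 40.9% and 62.8% of the 1292 genes of that bin. RPSA had a MYC fold of 8.61 with doxycycline and 13.8 without, and RPL5 8.80 with doxycycline and 10.5 without. RPL23A and the region shared by RPS25 and TRAPPC4 had a MYC peak without doxycycline only, at folds of 10.6 and 11.4.

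Other genes of protein synthesis were also largely included. Ribosome biogenesis genes had a region in 38 of 46 cases, translation factors in 32 of 39 and aminoacyl-tRNA synthetases with their scaffold proteins in 19 of 22. The share over all protein-coding genes was 31.1%. The median parental MYC folds were 8.10, 6.47 and 5.75 in that order. NPM1 and NCL, abundant nucleolar proteins, had parental MYC folds of 11.3 and 10.2, and MYC peaks with doxycycline (9.02 and 10.2) as well as without (9.48 and 12.8). A MYC peak with doxycycline was present at 21 of the 38 ribosome biogenesis genes and one without at 27; among the 32 translation factors these were 17 and 23. AIMP2, a scaffold of the synthetase complex that shares its region with the mismatch repair gene PMS2, had a MYC fold of 14.5 with doxycycline and 17.3 without. Genes without a region included BYSL, EIF3C and RARS1.

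Genes of the mitochondrial ribosome had a region in 50 of 77 cases, beside 31.1% of all protein-coding genes. Their median MYC fold was 5.02, with 14 genes in the highest bin. Of the 50, 7 had a MYC peak with doxycycline and 11 without, close to the 13.1% and 22.7% of all genes with a region. MRPL3 was among the strongest of this list, with a parental MYC fold of 14.0 and folds of 10.1 with doxycycline and 10.7 without.

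Among metabolic genes, nucleotide and one-carbon synthesis had a region at 24 of 29 genes, with a median MYC fold of 5.90. Glycolysis had one at 12 of 21, complex I and ATP synthase at 35 of 63, and cholesterol and fatty acid synthesis at 16 of 25. The share over all protein-coding genes was 31.1%, and short lists have wide intervals (34.0% to 78.2% for glycolysis). NME2, a nucleoside diphosphate kinase, had a parental MYC fold of 14.1, and MYC folds of 9.66 with doxycycline and 13.3 without. Its neighbour NME1 had a parental MYC fold of 12.3 and a MYC peak without doxycycline only, at 11.5. CAD, which starts pyrimidine synthesis and shares its region with ATRAID, had one without doxycycline only, at 9.76, and ODC1, which starts polyamine synthesis, had folds of 8.09 with doxycycline and 10.7 without. LDHA had 4.85 with doxycycline and 12.1 without, and FASN, the fatty acid synthase, 6.71 and 8.16. PAICS, ALDOC and HK1 had no region and no peak of the 3 proteins within 1 kb of the gene's start or end.

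Splicing factors of the SR and hnRNP families had a region in 31 of 35 cases, with a median MYC fold of 6.02. A MYC peak was present with doxycycline at 7 of them (22.6%) and without it at 16 (51.6%), beside 13.1% and 22.7% of all genes with a region. PCBP1 and HNRNPK had MYC peaks in both shMED30 libraries, and SRSF7 without doxycycline only. Among genes of protein quality control, a region was found at 24 of 31 chaperones, 24 of 39 proteasome subunits, 14 of 22 stress response genes and 20 of 30 lysosome and autophagy genes. These counts stand beside 31.1% of all protein-coding genes. Proteasome genes had a median MYC fold of 4.32, below the 4.80 of all genes with a region, and 2 of the 24 had a MYC peak with doxycycline and 3 without.

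RNA polymerase II subunits and elongation factors had a region at 23 of 39 genes, beside 31.1% of all protein-coding genes. MYC had a peak with doxycycline at 1 of the 23, POLR2I, whose region is shared with OVOL3 and TBCB, and without doxycycline at 8. Of 32 Mediator genes 15 had a region, none with a MYC peak with doxycycline and 2 with one without it. Over all genes with a region, 13.1% had a MYC peak with doxycycline and 22.7% without. Counts as small as those of these 2 lists are not set apart from such shares. MED17 was among the 15, with folds of 6.49 for MED17, 7.82 for MED30 and 3.14 for MYC, the last in the lowest bin, and a MYC fold of 3.35 without doxycycline; MED30 itself had no region. Of 15 genes of the MYC network 7 had a region. MXD1, which competes with MYC for MAX, had a parental MYC fold of 10.5 and MYC peaks with doxycycline (8.0) and without (8.71), while MAX had a parental MYC fold of 7.81 and no peak in either.

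Cell cycle and replication genes had a region at 18 of 30 genes, beside 31.1% of all protein-coding genes. Their median MYC fold was 4.59. MCM7, in a region shared with AP4M1, stood apart with 13.2 and MYC peaks with doxycycline (7.97) and without (9.01); MCM2, CCNB1 and E2F1 had the parental peak alone. Of 13 genes reported as repressed by MYC in other cells, 8 had a region, with a median MYC fold of 4.05 and a median MED30 fold of 7.33. Of these 8, TOB1 had a MYC peak without doxycycline (5.86) and none with it. TXNIP, GADD45A and CDKN1B had no MYC peak in either shMED30 library. Such absence, here and at the cell cycle genes above, was the common case: 3742 of the 5103 regions (73.3%) had a peak in neither library.

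Among genes of tissue identity, a region was found at 3 of 17 genes of the mesenchymal state (VIM, SNAI1 and S100A4), 3 of 16 of the epithelial state (KRT8 and KRT18, which share 1 region, and ESRP2), 1 of 24 acinar and islet genes (SYP) and 2 of 22 immune, fibroblast and endothelial genes (CD8A and ACTA2). Over all protein-coding genes the share with a region was 31.1%. None of these 9 tissue identity genes had a MYC peak in the shMED30 line, beside 13.1% of all genes with a region with doxycycline and 22.7% without. CD8A, with a parental MYC fold of 6.42, was the 1 gene of the 9 in the highest bin of that fold. None of 390 olfactory receptor genes had a region, which allows a share of up to 0.941% at the upper exact limit. A peak does not measure expression, so these counts are no check of which cells were present.

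**Figure D1:**
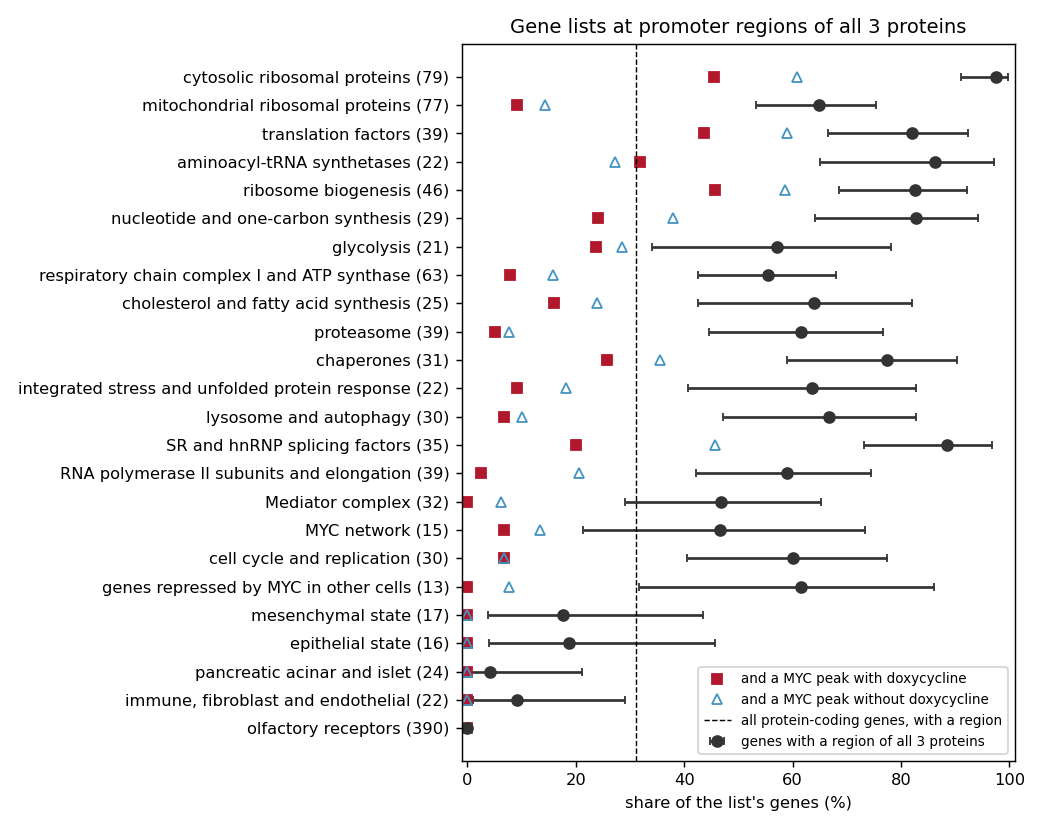
Share of the genes of each list (number of genes in brackets, y axis) with a region of all 3 proteins (black circles, exact 95% intervals), and with such a region plus a MYC peak in the shMED30 line with doxycycline (red squares) or without it (blue open triangles); the dashed line is the 31.1% of all protein-coding genes with a region. Cytosolic ribosomal proteins reach 97.5%, and olfactory receptors 0.

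Summits of the 3 proteins were spread differently around the gene start. In the 3128 regions with a single gene start of known strand, the MED17 summit lay at a median of 210 bp downstream of the start (quartiles 94.8 and 335 bp) and was downstream in 80.7% of regions (79.3% to 82.1%). The MED30 summit centred on the start, with a median of −1 bp (quartiles −132 and 108 bp), and was downstream in 49.7%. By its median the MYC summit lay between them, at 44 bp downstream, with a wider spread (quartiles −115 and 238 bp). MED30 and MYC summits were both most frequent 0 to 50 bp downstream. The MYC summit was downstream of the MED30 summit in 59.3% of regions, and the MED17 summit downstream of the MYC summit in 65.5%.

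Counted by zone, 8.60% of MED17 summits lay within 100 bp of the start and 55.8% lay 100 to 400 bp downstream. For MED30 these were 44.2% and 17.4%, and for MYC 31.6% and 26.9%. The MED17 summit was downstream of the MED30 summit in 2352 of the 3128 regions (75.2%), by a median of 191 bp over all of them (quartiles 3 and 350 bp). The same offset was present where MYC had no peak. In 830 single-start promoter regions with both Mediator subunits and no MYC, the median was 198 bp downstream for MED17 and 7 bp for MED30, so the arrangement was also found without a MYC peak.

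**Figure D2:**
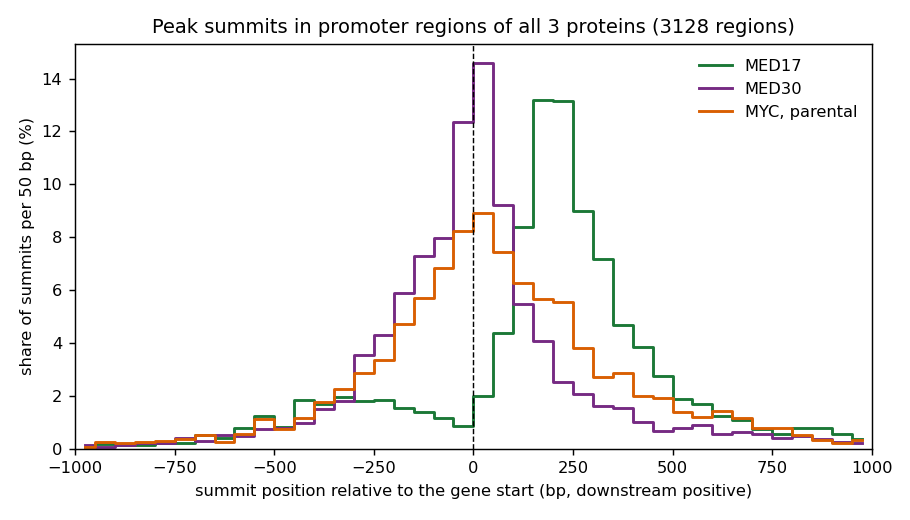
Share of summits per 50 bp (y axis) by their position relative to the gene start (x axis, downstream positive) in the 3128 regions with a single start, for MED17 (green), MED30 (purple) and parental MYC (orange). MED30 peaks in the bin just downstream of the start, MED17 in the bin from 150 to 200 bp downstream with few summits at the start itself, and MYC is broad.

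Over all 5103 regions the MED30 and MYC summits lay a median of 166 bp apart (quartiles 70.5 and 318 bp), closer than MED17 and MYC (246 bp) or MED17 and MED30 (244 bp). In the 1363 distal regions of all 3 proteins, MED17 and MED30 summits lay closer, at 193 bp, and within 100 bp in 29.8% (27.4% to 32.3%), against 19.4% (18.3% to 20.5%) of the promoter regions. MYC summits of the shMED30 line fell close to the parental ones: a median of 55 bp away with doxycycline and 58 bp without it, and within 100 bp in 69.5% of 645 and 67.4% of 1145 regions. Relative to the gene start, the MYC summit had a median of 93 bp downstream with doxycycline (381 single-start regions) and 78 bp without it (699), beside the 44 bp of the parental list over its 3128 regions, of which these are a part.

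Sequence was not part of the selection. Promoters of 300 bases, from 250 before to 50 after the gene start, were taken from the RefSeq table, which held 15812 of the 19974 protein-coding genes (79.2%) and 5181 of the 6206 genes with a region; 4903 promoters lay in or within 1 kb of a region of all 3 proteins. Promoters and gene strands on chromosome 8, which has 152 of the regions, were not used here, so these enter no result on motifs or on summit positions relative to a gene start. Each motif was searched on both strands, and a match is only a match of letters. CACGTG was present in 598 of the 4903 (12.2%, 11.3% to 13.2%), against 8.82% of all promoters. It was in 6.25% of the 7197 promoters with no merged region of any class within 1 kb of the start. Promoters with both Mediator subunits and no MYC peak held it in 4.56% (3.46% to 5.88%). Where MYC came with 1 Mediator subunit or none, it was in 14.3% and 14.5%, with intervals that overlap that of the regions of all 3 proteins.

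Base composition differed too. The median GC content was 66.3% in promoters at regions of all 3 proteins, 63.0% in those with Mediator alone and 62.7% in all promoters, and the median number of CpG sites per promoter was 28, 24 and 22. Promoters with no merged region of any class within 1 kb had medians of 56.7% GC and 8 CpG sites. Within 65% to 75% GC, CACGTG was in 13.7% of 2056 promoters at regions of all 3 proteins (12.2% to 15.2%), against 6.35% of 394 with Mediator alone (4.15% to 9.22%) and 11.1% of all 4743 promoters in that range. The gap from promoters with Mediator alone was present in each of the 4 ranges of GC content examined, although the intervals overlapped below 55% GC. The share at regions of all 3 proteins was also above that of promoters without a region in each range. These intervals overlapped at 55% to 65% GC, with 11.4% (9.87% to 13.0%) against 9.18% (7.96% to 10.5%). They overlapped as well from 75% GC, with 12.9% (10.6% to 15.6%) against 9.02% (6.73% to 11.8%). They did not overlap below 55% GC (7.81% against 3.30%) or within 65% to 75% GC (13.7% against 7.80%).

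Of the other motifs, the variant E-box CACGCG was in 1080 of the 4903 promoters at regions of all 3 proteins (20.9% to 23.2%), against 12.3% with Mediator alone and 14.8% of all. The looser CANNTG, of which CACGTG is a case, was in 58.0%, against 56.6% and 64.6%, and CATGTG, another case of it, in 6.14%, against 4.88% and 8.57%. The ETS motif CCGGAAG was in 24.8%, against 307 of 1229 with Mediator alone (22.6% to 27.5%) and 14.1% of all, and the GC box GGGCGG in 74.4%, against 69.3% and 58.3%. CCAAT was in 35.4%, against 45.6% with Mediator alone and 36.4% of all, and TATAAA in 4.49%, against 7.65% and 9.75%. TATAAA and CCAAT were thus less frequent at regions of all 3 proteins than with Mediator alone, whereas the ETS motif was as frequent. Where MYC came with 1 Mediator subunit or none, the ETS motif was less frequent, in 16.4% (14.1% to 18.9%) and 17.6% (13.6% to 22.1%). The cyclic AMP response element TGACGTCA was in 3.69%, against 3.74% and 2.56%, and the element in capitals in GDI2 in 1.45%, against 1.06% and 0.670%.

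The E-box share climbed with the strength of MYC, ran slightly down with that of MED30 and was flat along that of MED17. Over 5 equal bins of parental MYC fold from lowest to highest, CACGTG was in 6.32%, 6.94%, 11.2%, 12.6% and 24.0% of promoters (21.3% to 26.8% in the highest bin). Over bins of MED17 fold it was 12.2% in the lowest and 12.0% in the highest, and the intervals of its 5 bins overlapped. Over bins of MED30 fold it was 13.5%, 14.1%, 12.2%, 11.4% and 9.79%, and the intervals of the bins with the highest and the lowest share, 12.0% to 16.4% and 8.0% to 11.8%, did not overlap. CACGCG also ran up with MYC fold, with 15.8% in the lowest bin and 28.3% in the highest. GGGCGG ran slightly down with MYC fold, with 77.5% in the lowest bin (74.7% to 80.1%) and 72.8% in the highest (69.9% to 75.6%). CCGGAAG ran up with MED30 fold, with 20.3% in the lowest and 28.0% in the highest.

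Where the promoter held CACGTG, it often lay near the MYC summit, as in the printed HERPUD1, NDUFA11 and LDHA promoters. In the 598 promoters with CACGTG, the nearest match lay a median of 75.5 bp from the parental MYC summit and within 50 bp in 43.0% (39.0% to 47.0%). The same match lay a median of 162 bp from the MED30 summit and 337 bp from the MED17 summit, with 15.7% and 1.84% within 50 bp. The stretch searched ended 50 bases after the start. In single-start regions 55.8% of MED17 summits lay 100 to 400 bp downstream, against 17.4% for MED30 and 26.9% for MYC. A match within 50 bp of such summits could hardly be found, so the 3 distances do not compare the proteins. In the highest bin of MYC fold the median distance to the MYC summit was 30 bp, with 61.3% within 50 bp, and in the lowest bin 242 bp and 16.1%. MYC summits of the shMED30 line lay at similar distances from it, with medians of 44 bp with doxycycline (129 promoters) and 45 bp without (215).

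**Figure D3:**
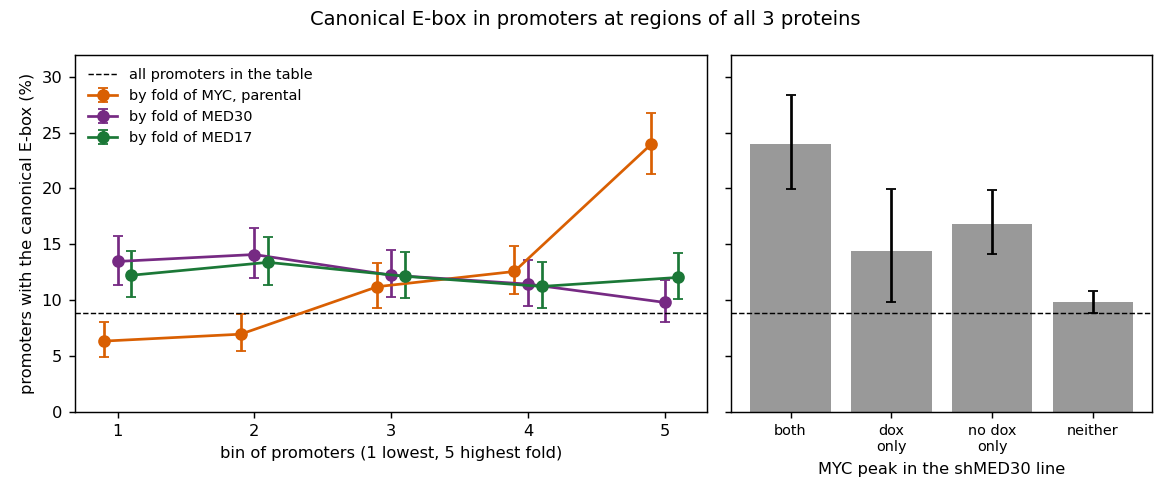
Left, share of promoters with CACGTG (y axis) over 5 equal bins of the parental MYC (orange), MED30 (purple) and MED17 (green) fold, from lowest to highest. Right, the same share by whether MYC had a peak in the shMED30 line with and without doxycycline; bars on both are exact 95% intervals and the dashed line is the 8.82% of all promoters. The share climbs with MYC fold to 24.0% and is 24.0% where both shMED30 libraries had a peak.

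The shMED30 line was not used to choose the regions. Its lists are shorter and shallower: 4621 peaks with doxycycline and 7158 without, beside 14331 for parental MYC, 13172 for MED17 and 12040 for MED30. The background pileup, recovered from each list's folds and p-values, was 0.186 fragments with doxycycline and 0.310 without, beside 2.56 for parental MYC, so the doxycycline library had 0.60 times the background of the no-doxycycline library and the parental MYC library 8.27 times it. The median summit pileup in the regions was 7 fragments with doxycycline and 9 without, and the shMED30 lists reach up to a q of 0.1 where the parental lists stop at 0.05. A region without a peak in these lists had no MYC detected at this depth, which differs from having no MYC. Depth and doxycycline cannot be told apart here, since each condition is 1 library.

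MYC had a peak in 645 of the 5103 regions with doxycycline (12.6%, 11.7% to 13.6%) and in 1145 without it (22.4%, 21.3% to 23.6%). Over all 15564 merged regions outside gene-free stretches these shares were 7.42% and 12.9%, many of which had no MYC peak in the parental cells either. Both libraries had a peak in 429 regions, the doxycycline library alone in 216, the no-doxycycline library alone in 716 and neither in 3742. Of the 1145 regions with a peak without doxycycline, 37.5% (34.7% to 40.3%) thus also had one with it, which was close to the 37.3% of all 2007 such merged regions, of which these are part. In 411 of the 429 the 2 peaks overlapped, and in the other 18 they lay apart in the same region.

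A smaller share of peaks was kept at promoter regions of all 3 proteins than at distal ones. Among the 1363 distal regions, 15.3% had a MYC peak with doxycycline and 24.0% without it, and 151 of 327 regions with one without doxycycline also had one with it (46.2%, 40.7% to 51.8%). The share kept differed by −8.71 percentage points, promoter minus distal, with a counting interval of −14.8 to −2.67. Within 5 bins of the fold without doxycycline, the weighted difference was −6.42 points; promoter regions were lower in 4 bins and higher by 0.717 points in the middle one, and in every bin the intervals of the 2 classes overlapped. There is no replicate to set this difference against.

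At promoters with both Mediator subunits and no parental MYC peak, MYC had a peak with doxycycline in 6 of 1351 regions (0.444%) and without it in 20 (1.48%), with no region in both. Where MYC came with 1 Mediator subunit, the shares were 8.30% and 16.9% of 1120 regions, and where it came with neither, 4.97% and 9.18% of 523. These classes also had lower parental MYC folds, with medians of 4.35 and 3.99 beside 4.77. In the fold range of the highest bin, MYC peaks were present with doxycycline in 41.2% (38.2% to 44.3%) of regions of all 3 proteins, in 33.8% (26.1% to 42.2%) of those with 1 Mediator subunit and in 21.7% (7.46% to 43.7%) of the 23 with neither. Without doxycycline the same shares were 63.2%, 56.3% and 60.9%, so at like parental MYC fold the intervals of the classes overlapped in both libraries.

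**Figure D4:**
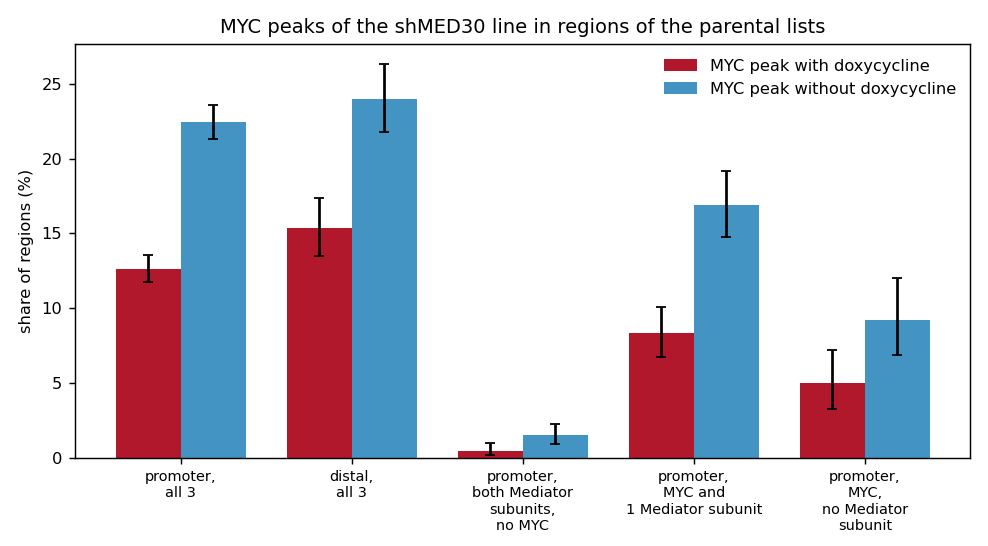
Share of regions (y axis) in which the shMED30 line had a MYC peak with doxycycline (red) and without it (blue), by class of parental region (x axis); bars are exact 95% intervals, which cover counting error only. Regions of all 3 proteins at promoters reach 12.6% and 22.4%, and promoters with Mediator and no MYC 0.444% and 1.48%.

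Parental MYC fold ordered the shMED30 line more than either Mediator subunit did. Over 5 equal bins of parental MYC fold from lowest to highest, 1.57%, 2.55%, 6.27%, 11.6% and 41.2% of regions had a MYC peak with doxycycline. Without doxycycline the shares were 3.43%, 6.37%, 14.0%, 25.2% and 63.2%. The share of no-doxycycline peaks with a doxycycline peak beside them was 5.71%, 9.23%, 14.0%, 21.8% and 53.5%. Over bins of MED30 fold the span was narrower, with 9.79% in the lowest and 15.9% in the highest with doxycycline, and 18.0% and 27.8% without. Over bins of MED17 fold it was 11.3% and 12.8% with doxycycline, and 19.5% and 25.9% without.

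Among regions with a peak, folds ran together between libraries: Spearman's rho with the parental MYC fold was 0.520 over the 645 regions with a doxycycline peak and 0.576 over the 1145 with a no-doxycycline peak. These are descriptions across regions that share their cell line and antibody target, with no replicate behind them. The highest bin of parental MYC fold, at 6.36 or above, held 345 of the 429 regions with a peak in both shMED30 libraries.

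**Figure D5:**
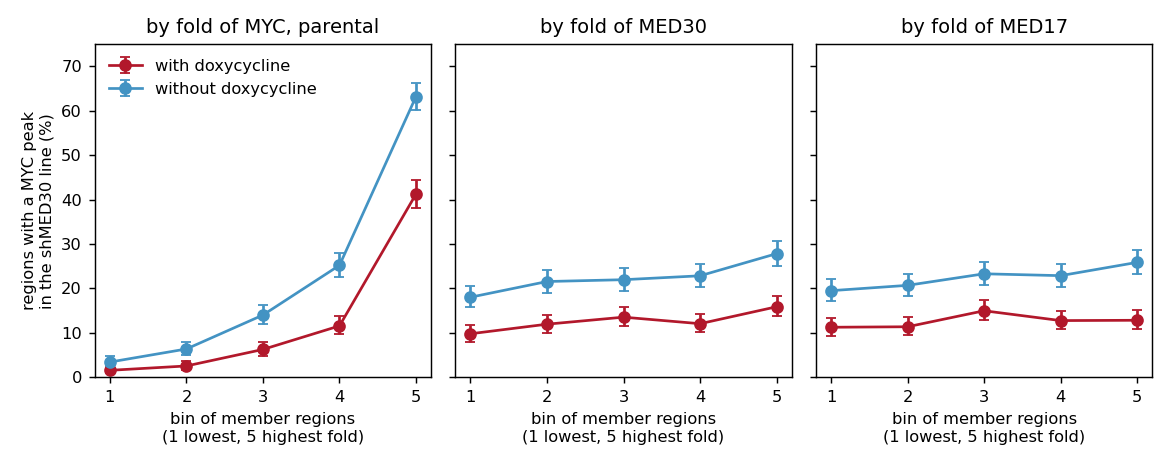
Share of the 5103 regions in which the shMED30 line had a MYC peak with doxycycline (red) and without it (blue) over 5 equal bins of the parental fold of MYC, MED30 and MED17 (x axes, lowest to highest); bars are exact 95% intervals. Along MYC fold the shares climb to 41.2% and 63.2%, and along both Mediator folds they stay between 9.79% and 27.8%.

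The E-box went with presence in the shMED30 line as it went with MYC fold. CACGTG was in 24.0% (20.0% to 28.4%) of promoters where both libraries had a peak, 14.4% with doxycycline alone, 16.9% without doxycycline alone and 9.83% with neither. Promoters with CACGTG had a MYC peak with doxycycline in 21.6% and without it in 36.0%, against 11.4% and 20.5% of promoters lacking it. Within each of the 5 bins of parental MYC fold the intervals of these shares overlapped in both libraries. In the highest bin they were 44.3% against 39.8% with doxycycline and 68.5% against 62.7% without. In some lower bins the order was reversed, as in the third without doxycycline, at 9.09% against 13.65%. Of the regions with a no-doxycycline peak, 46.5% (39.7% to 53.4%) of those with CACGTG and 35.9% (32.7% to 39.1%) of those lacking it also had a doxycycline peak. Promoters with CACGTG had a higher median parental MYC fold, 5.60 against 4.68, and within the highest bin the kept shares were 57.1% (49.1% to 64.9%) and 53.0% (48.4% to 57.6%), with overlapping intervals. In the bin below it the order was the other way round, with 11.4% (3.20% to 26.7%) kept with CACGTG and 21.1% (15.7% to 27.2%) without it.

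The strongest no-doxycycline peaks that overlapped a doxycycline peak were at genes of several kinds. The region of SNX5 and MGME1, whose product trims mitochondrial DNA, had a MYC fold of 11.7 with doxycycline and 17.5 without. GDI2 had 15.7 with doxycycline, the highest fold of that library in the regions, and 14.2 without. RABGGTB, a subunit of the enzyme that attaches lipids to Rab proteins, had 9.19 and 14.5, and HMGN1, a nucleosome-binding protein, 11.6 and 14.1. WDR43, a factor of small ribosomal subunit assembly, had 9.03 and 13.5. RPS23, RPSA, NME2, AIMP2 and PCBP1 completed the 10, and neither fold can be set against the other as a change, because the libraries differ in depth.

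The strongest no-doxycycline peaks without an overlapping doxycycline peak were at URB1, a ribosome biogenesis factor (13.8), NME1 (11.5), RPS25 and TRAPPC4 (11.4), and RGS10, a regulator of G-protein signalling (11.4). IMPA2, ZNF121, RPL23A, CDK10, C6orf62 and ANXA2 followed at 11.0 to 10.1. All 10 lay in the highest bin of parental MYC fold, up to 12.7 at URB1. The 5 strongest doxycycline peaks without a no-doxycycline peak were at ATL2 (8.24), SCARB1 (8.02), the spliceosome gene SNRPE (7.89), HTATIP2 (7.84) and the region of POP1 and RIDA (7.52). Their parental MYC folds ran from 4.96 at HTATIP2 to 9.55 at POP1 and RIDA.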

How the data were processed

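The deposited files are MACS2-style peak lists, 1 per library, on hg38. Trim Galore, Bowtie2, deepTools and MACS2 are named in the submitters' processing notes, while versions and any input control were not given in the sources used here. The fold enrichment is a ratio deposited by the authors, of summit pileup to local background. The authors' significance is a −log10 p and a −log10 q per peak. The deposited score follows from the q, as 10 times its −log10. The deposited lists have no header lines.

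Peaks were merged and compared with Python 3.11.15, numpy 2.4.6, pandas 2.3.3 and scipy 1.17.1. Gene boundaries and promoters came from RefSeq tables of GRCh38.p14. Strand was known only for genes in the promoter table. Relative depth was recovered from fold and Poisson p, matched within 0.002 log10 units for at least 99.9% of peaks in each list; total reads are not part of a peak list. Merging, pileup recovery and motif search were checked on simulated data. Shares carry exact Clopper-Pearson 95% intervals, and the difference of 2 shares a Newcombe interval; both cover counting error only and treat regions as independent. Bins hold equal numbers of regions. The members, the 24 gene lists and the comparisons were chosen with earlier results of these data known. Named genes are those at the 10 regions with the lowest mean rank, the 10 strongest no-doxycycline peaks with and the 10 without an overlapping doxycycline peak, the 5 strongest doxycycline peaks without a no-doxycycline peak, the 5 widest regions, the 5 with the most genes, up to 4 strongest members and 3 members without a region per list, and 8 genes always looked up; some of these are given only within counts or not reported here. Printed promoters are those of named genes with CACGTG nearest the MYC summit, or without it at the highest MYC fold.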

Additional observations from a re-analysis of the deposited data

How the results depend on the processing

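Alternatives were run for the numbers of regions and genes, the shares with a MYC peak with and without doxycycline and kept, the promoter minus distal difference, the CACGTG share and the distance between MYC and MED30 summits, and not for gene lists, bins or summit positions at the start. Of these 60, 51 stayed within the counting interval of the value given, or within 1.5 times the count. Limiting each list to its upper 50% by fold left 1357 regions and 1671 genes, with a MYC peak in 16.9% with doxycycline and 28.1% without, 45.1% of the no-doxycycline peaks kept, and a median distance of 151 bp between MYC and MED30 summits. A q of at most 0.01 in all 5 lists gave 11.0% with doxycycline and 20.8% without. Counting CACGTG only in the 250 bases before the start gave 10.7%. By construction these settings use fewer peaks or a shorter window. The kept share at promoter minus distal regions ran from −6.87 points with gene starts only to −11.9 points with the upper 50% by fold. Judging a peak as kept by overlap instead of by region, a choice added after the data had been seen, gave 35.9% kept. No paired analysis was possible because each group holds 1 library. Depth limits the shMED30 lists, and their missing peaks are not evidence of missing MYC.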
